A study of Mus musculus with 9 samples.

Results

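The genes of the NF-kappaB transcription factors, of the IkappaB proteins that hold them in check and of Bcl3 were examined in cells expressing v-Src or STAT3-C. The list names 10 genes: the subunit genes Nfkb1, Nfkb2, Rel, Rela and Relb, the inhibitor genes Nfkbia, Nfkbib and Nfkbie, and Nfkbiz and Bcl3, which encode IkappaB-like proteins of the nucleus. Every probeset whose single annotated gene symbol was one of these was taken, which gave 18 of the 45037 probesets tested. They measure 9 of the 10 genes: 5 probesets for Nfkbia, 3 for Nfkbiz, 2 each for Nfkb2, Nfkbib and Nfkbie, and 1 each for Rel, Rela, Relb and Bcl3. Nfkb1, which encodes p105 and its processed form p50, had no such probeset in the annotation used here and was not analysed.

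The 9 Affymetrix mouse genome arrays measured RNA of Balb/c-3T3 mouse fibroblasts, 3 for each of 3 lines, all kept in DMEM with bovine calf serum. Control cells carried no transfected gene, v-Src cells were stably transfected with pMvSrc, a plasmid for the tyrosine kinase of Rous sarcoma virus, and STAT3-C cells were stably transfected with pRc/CMV-STAT3C, a plasmid for a constitutively active mutant of STAT3. The control and STAT3-C arrays are numbered 1, 2 and 3, and the v-Src arrays 1, 5 and 6. An array holds RNA pooled from 5 dishes of 1 passage. Each line is a single stable line taken at 3 consecutive passages, and p-values therefore cover passage-to-passage spread only, not that of separately derived clones.

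NF-kappaB proteins bind DNA as dimers of Rel family subunits. In resting cells the IkappaB proteins hold most dimers in the cytoplasm, and inflammatory signals such as tumour necrosis factor or interleukin-1 activate the IkappaB kinase, which marks IkappaB for destruction and frees the dimers. A slower branch processes p100, the product of Nfkb2, to p52, which pairs with RelB, while Bcl-3 and IkappaB-zeta act in the nucleus on p50 or p52 dimers. Several genes of the system are themselves NF-kappaB targets, Nfkbia and Nfkb2 among them, and fibroblasts answer the pathway with chemokines, adhesion molecules and proteases.

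Promoter sequences are given for Bcl3, Nfkb2, Rela and Nfkbia, so that their kappaB and STAT matches can be set beside the values that follow. RefSeq windows (build GRCm38.p6) of 250 bases before to 50 bases after a transcript start were at hand for 7 of the 10 genes, in 9 windows; Nfkb1, Relb and Nfkbiz are not in that table. Shown are Bcl3 (chr7:19822706-19823005, minus strand), the only member that rose at its single probeset with v-Src, a first and a second Nfkb2 window (chr19:46304487-46304786 and chr19:46305445-46305744, plus strand), for the gene that fell in both lines, Rela (chr19:5637291-5637590, plus strand), which rose with STAT3-C, and Nfkbia (chr12:55492598-55492897, minus strand), the inhibitor with 5 probesets. Each is written 5′ to 3′ on the strand of its gene. Capitals mark a match, on either strand, to the STAT motif TTCNNNGAA or to the kappaB consensus GGGRNNYYCC. In these patterns R is A or G, Y is C or T and N is any base.
Bcl3: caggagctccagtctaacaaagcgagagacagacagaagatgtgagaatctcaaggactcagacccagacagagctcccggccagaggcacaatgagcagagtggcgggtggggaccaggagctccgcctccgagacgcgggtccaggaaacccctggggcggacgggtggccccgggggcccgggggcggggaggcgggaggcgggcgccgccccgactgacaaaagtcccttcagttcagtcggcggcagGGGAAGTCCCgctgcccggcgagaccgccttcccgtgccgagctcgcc
Nfkb2, first window: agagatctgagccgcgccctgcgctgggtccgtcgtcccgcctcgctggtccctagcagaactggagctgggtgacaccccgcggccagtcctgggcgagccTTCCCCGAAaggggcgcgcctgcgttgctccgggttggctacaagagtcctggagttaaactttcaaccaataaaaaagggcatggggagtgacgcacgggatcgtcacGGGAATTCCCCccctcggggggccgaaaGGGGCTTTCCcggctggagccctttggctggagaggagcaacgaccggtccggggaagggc
Nfkb2, second window: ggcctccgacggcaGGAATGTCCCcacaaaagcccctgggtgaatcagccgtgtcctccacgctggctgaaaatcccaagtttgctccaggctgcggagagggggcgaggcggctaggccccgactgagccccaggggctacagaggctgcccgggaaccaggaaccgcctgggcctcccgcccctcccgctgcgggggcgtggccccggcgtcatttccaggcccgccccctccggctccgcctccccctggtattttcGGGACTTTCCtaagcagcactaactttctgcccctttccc
Rela: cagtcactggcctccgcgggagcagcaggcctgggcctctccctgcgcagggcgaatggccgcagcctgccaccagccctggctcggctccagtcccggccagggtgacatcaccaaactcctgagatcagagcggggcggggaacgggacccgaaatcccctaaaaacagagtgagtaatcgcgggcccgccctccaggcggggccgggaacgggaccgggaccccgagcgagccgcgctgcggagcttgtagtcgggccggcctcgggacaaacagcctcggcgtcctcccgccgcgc
Nfkbia: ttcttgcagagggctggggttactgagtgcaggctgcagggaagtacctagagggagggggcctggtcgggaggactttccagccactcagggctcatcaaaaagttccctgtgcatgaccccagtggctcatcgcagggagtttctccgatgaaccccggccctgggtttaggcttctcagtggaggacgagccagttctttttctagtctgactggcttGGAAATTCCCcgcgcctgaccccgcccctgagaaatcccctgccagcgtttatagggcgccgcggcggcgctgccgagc

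The Bcl3 window held 1 match to the kappaB consensus, from base 3 to base 12 after the start. In the first Nfkb2 window the kappaB matches began 39, 38 and 11 bases upstream of the start, the first 2 overlapping each other, and the STAT match began 148 bases upstream. The second Nfkb2 window held kappaB matches 236 bases upstream and from base 11 to base 20 after its start, and the latter lies also in the third Nfkb2 window, which overlaps the second. The Nfkbia match lay 29 bases upstream, that of Nfkbie 106 bases and those of Rel 92 and 91 bases, again overlapping, and the Rela and Nfkbib windows held neither motif. A kappaB match was thus present in 7 of the 9 windows, and in 8.46% of all 32851 promoter windows of the same length. The STAT motif was found in 1 of the 9 windows and in 8.3% of all windows. The paper searched a longer stretch of the Necdin promoter with a looser STAT3 pattern, which was not counted here. A match describes the letters only and does not show that a factor binds there.

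Expression is given as log2 RMA level, the background-corrected and quantile-normalized summary of a probeset's probes. The array medians lay between 6.27 and 6.39 and the lower quartiles between 5.07 and 5.16. Within a line, pairs of arrays had a Pearson r of 0.990 to 0.995 over all probesets, and control paired with transfected arrays had 0.943 to 0.948. Of the 14 fibroblast markers checked, all 14 lay above the array median in control cells, 11 in v-Src and 12 in STAT3-C cells. Their mean log2 level was 11.46 to 11.63 in the control arrays, 9.84 to 10.32 with v-Src and 10.09 to 10.23 with STAT3-C. Of the 14, 7 fell and 1 rose with v-Src, where 10.4% of all genes fell. With STAT3-C 8 fell and 1 rose, where 10.3% of all genes fell. The mean log2 level of 13 macrophage and leukocyte markers was 6.19 to 6.33 in control, 6.51 to 6.66 in v-Src and 6.82 to 6.92 in STAT3-C arrays. Of these 13, 2 rose with v-Src and 4 with STAT3-C, beside 9.54% and 11.9% of all genes. Cd14 (log2 difference 2.12 in each line) and Lyz2 (0.86 and 1.95) were among the markers that rose. The pan-leukocyte marker Ptprc stayed at a mean log2 level of 3.99 to 4.36, under the lower quartile of every array. No endothelial or epithelial marker passed against control by limma, the moderated linear model used throughout, or by SAM, a permutation-based test used as an alternative. At an unadjusted limma p under 0.05, none of 7 endothelial and 4 of 8 epithelial markers differed between v-Src and control arrays, and 1 and 3 of them between STAT3-C and control arrays. The share of all genes at that unadjusted threshold was not computed, here or for the lists below. Both marker shifts run with the lines, and their part in the member results was not tested. In RNA of whole cultures, fewer cells that express a gene and less of its RNA per cell cannot be told apart.

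Of the transfected genes, mouse Stat3 was measured by 4 probesets. With STAT3-C, 1460700_at rose (log2 difference 0.72, standard error 0.15, adjusted p = 0.00827, limma) and the other 3 did not pass, with log2 differences of 0.11 to 0.24. With v-Src, 1426587_a_at rose by 1.53 and 1460700_at by 1.30 on the log2 scale. Neither mouse Src probeset passed in either line; v-Src is a viral sequence, and mouse probesets do not check for it.

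Each line was compared with control cells to find the genes it changed, and the lines were compared with each other to test whether their effects differed. A probeset passed when limma gave it a Benjamini-Hochberg adjusted p under 0.05 and its fold was 1.5 or more. SE stands for the standard error of a log2 difference from limma, over 3 arrays a line. With v-Src, 2 of the 18 member probesets rose, those of Bcl3 and 1 of Nfkbia, beside 8.75% of all probesets tested, and 1 fell, in Nfkb2, beside 8.1%. With STAT3-C, 3 rose (Rela and 1 each of Nfkbia and Nfkbie) beside 9.68%, and 3 fell (both of Nfkb2, and Relb) beside 8.58%. The median log2 difference of the 18 was 0.03 with v-Src and 0.13 with STAT3-C, and over all probesets it was 0.03 and 0.02. In the direct comparison 1 member probeset was higher with v-Src (Bcl3) beside 4.99% of all, and 2 were lower (1 each of Nfkbia and Nfkbie) beside 5.33%. Against control, 1 member probeset rose in both lines (Nfkbia) beside 5.17% of all and 1 fell in both (Nfkb2) beside 5.37%. These counts share the 3 control arrays.

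**Figure D1:**
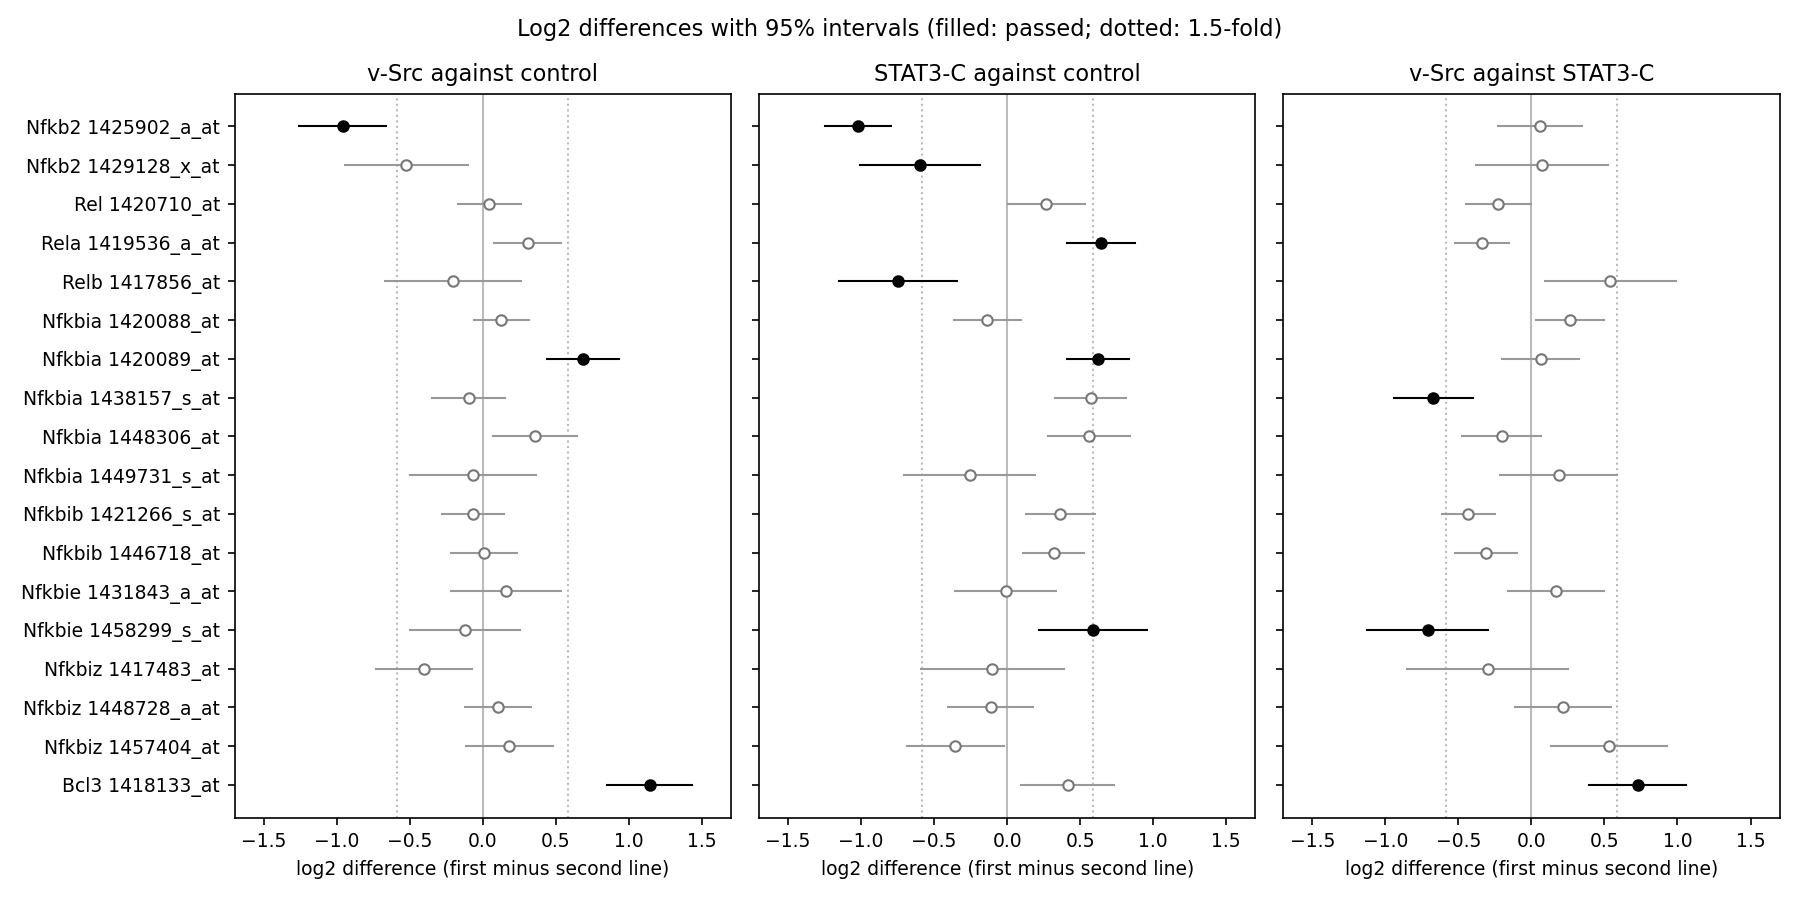
Log2 differences of the 18 member probesets (x axis, first minus second line) for each transfected line against control and for v-Src cells against STAT3-C cells, with 95% intervals from limma; filled points passed and dotted lines mark a 1.5-fold change. Bcl3 stands highest with v-Src at 1.14 and Nfkb2 1425902_a_at lowest in both lines, at -0.96 and -1.02.

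Most member probesets lay within the 1.5-fold lines in the plot of differences and intervals. Those that passed fell on both sides of 0.

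Among the subunits, Nfkb2 fell in both lines. It encodes p100, the precursor of p52, and lies at chr19:46300994-46312400 (gene positions are of the same build as the promoters). At 1425902_a_at its log2 level was 9.94, 10.03 and 9.82 in control arrays 1, 2 and 3. In v-Src arrays 1, 5 and 6 it was 8.79, 9.23 and 8.89, and in STAT3-C arrays 1, 2 and 3 it was 8.92, 8.99 and 8.82. All 6 transfected arrays lay below all control arrays, and the transfected lines overlapped. With v-Src it fell by 0.96 in log2 units (SE 0.13, limma adjusted p = 0.00148), a 1.95-fold fall. With STAT3-C it fell by 1.02 (SE 0.10, limma adjusted p = 0.000163), or 2.03-fold. The direct difference, v-Src minus STAT3-C, was 0.06 with a 95% interval of -0.23 to 0.35.

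The second Nfkb2 probeset, 1429128_x_at, lay lower in every transfected array than in every control array too. Its control levels were 8.00, 8.45 and 8.05, its v-Src levels 7.35, 7.94 and 7.64, and its STAT3-C levels 7.58, 7.26 and 7.87. With STAT3-C the log2 difference was -0.59 (SE 0.18, limma adjusted p = 0.0375) and passed just over the 1.5-fold line. That call was lost without control replicate 1, 2 or 3 and without STAT3-C replicate 1 or 2, with differences of -0.68 to -0.44. With v-Src the difference was -0.52 (SE 0.18, limma adjusted p = 0.0689), short of the threshold; omitting v-Src replicate 5 gave -0.67, which passed.

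Relb encodes the partner of p52 and lies at chr7:19606217-19629438. Its log2 level at 1417856_at was 8.87, 8.88 and 8.39 in the control arrays. In the STAT3-C arrays it was 8.25, 7.93 and 7.73, all below control, and in the v-Src arrays it was 8.24, 8.88 and 8.42, which overlapped control. With STAT3-C Relb fell by 0.75 on the log2 scale (SE 0.18, limma adjusted p = 0.0138), or 1.68-fold. Without control replicate 1 the difference was -0.67 and the adjusted p 0.0569. With v-Src the difference was -0.20 (95% interval -0.67 to 0.26). The direct difference between the lines, 0.54 in favour of v-Src (95% interval 0.09 to 0.99, adjusted p = 0.0914, limma), did not pass, so the 2 effects were not shown to differ.

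Rela encodes p65, the subunit of the most common NF-kappaB dimer with a transactivation domain, and lies at chr19:5637442-5648134. Its log2 level at 1419536_a_at was 10.77, 10.96 and 10.68 in control cells, 11.04, 11.21 and 11.07 in the v-Src arrays, and 11.50, 11.39 and 11.45 in the STAT3-C arrays. The 3 groups did not overlap, with v-Src between the other 2. With STAT3-C Rela rose by 0.64 on the log2 scale (SE 0.10, limma adjusted p = 0.00197), or 1.56-fold. The rise is close to the 1.5-fold line: without control replicate 3 it was 0.58, just under it, with an adjusted p of 0.00754, and after quantile normalization it was 0.53 with an adjusted p of 0.00874 (both limma). With v-Src the difference of 0.31 (SE 0.10, limma adjusted p = 0.0538) did not pass. The direct difference was -0.34 (SE 0.08), with an adjusted p of 0.0246 but a fold under 1.5.

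Rel encodes c-Rel, a subunit best known from lymphocytes, and lies at chr11:23736847-23770969. At 1420710_at its log2 level was 5.48 to 5.74 in control, 5.64 to 5.74 in v-Src and 5.74 to 6.02 in STAT3-C arrays. These levels lie between the lower quartile and the median of an array, and Rel passed in no comparison. Its log2 difference from control was 0.04 (95% interval -0.17 to 0.26) with v-Src and 0.27 (95% interval 0.00416 to 0.53, adjusted p = 0.12, limma) with STAT3-C.

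**Figure D2:**
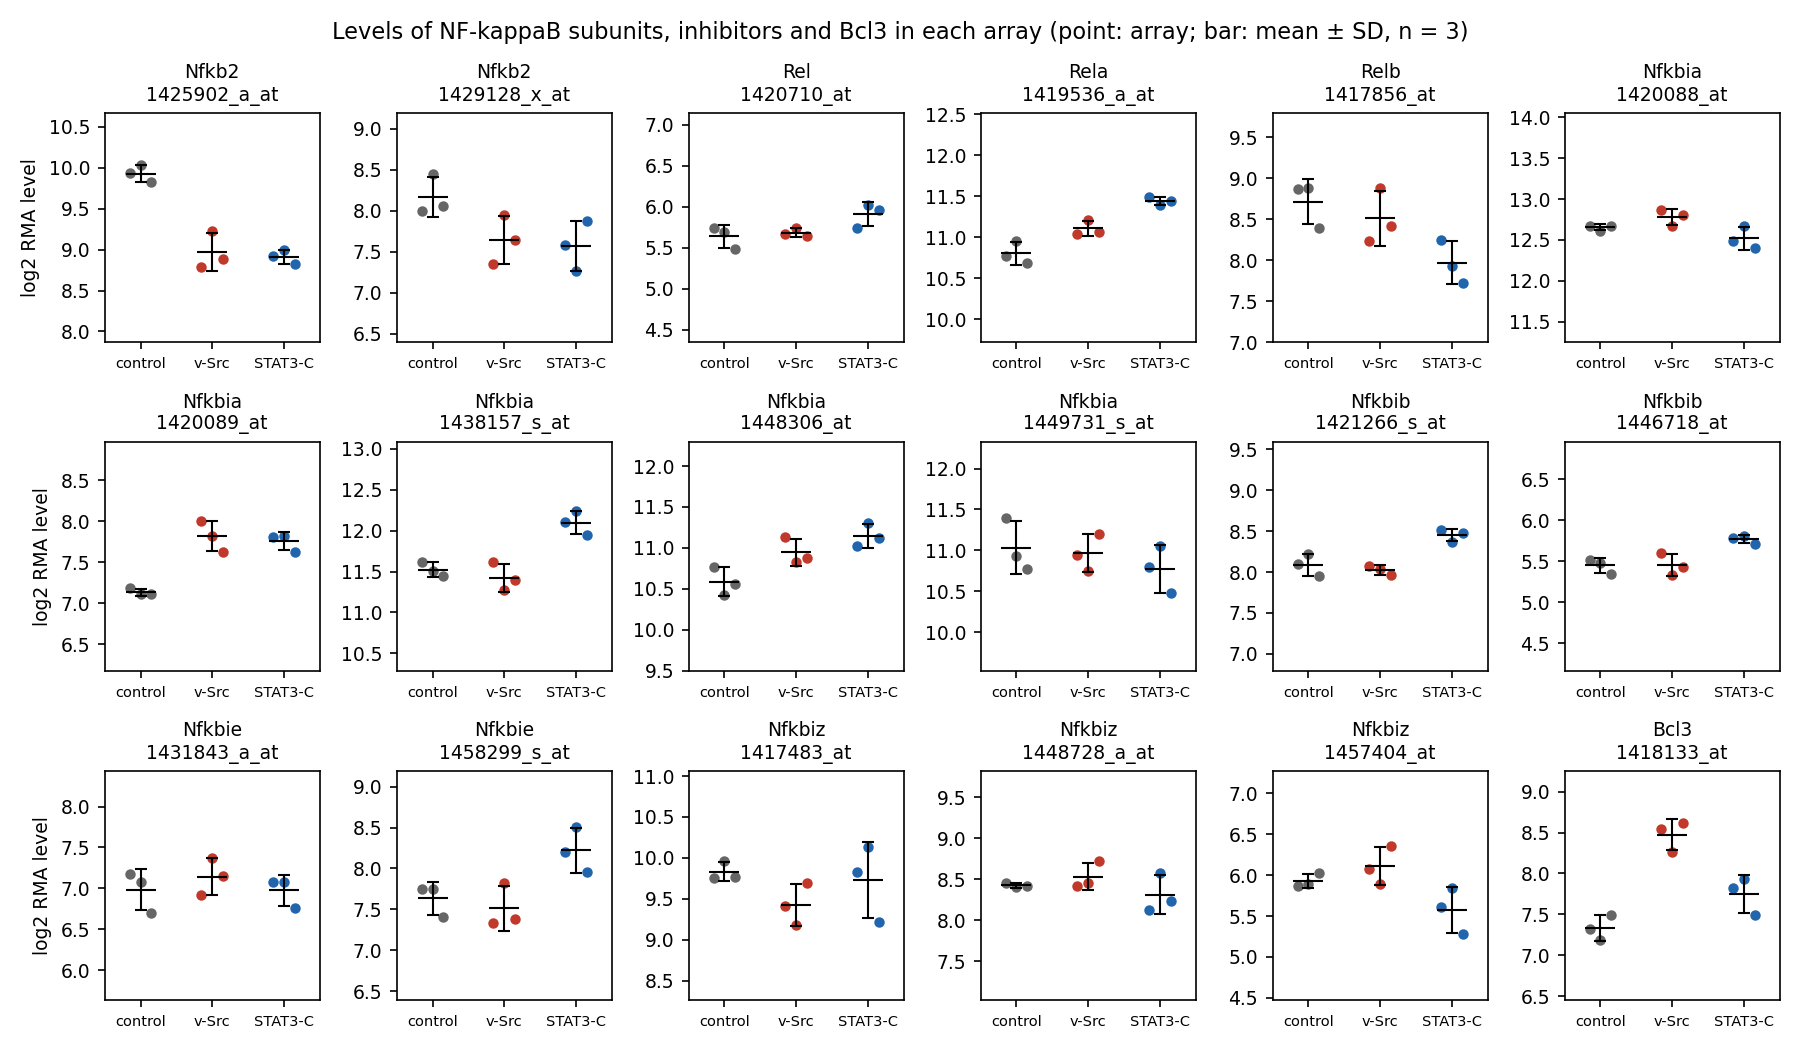
Log2 RMA level of each of the 18 member probesets (y axis) in the control, v-Src and STAT3-C arrays (x axis); points are arrays and bars the mean ± SD of 3 arrays, and every panel has its own y range of the same width. Nfkb2 1425902_a_at is lower in all 6 transfected arrays than in control, and Bcl3 is highest in the 3 v-Src arrays.

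Among the inhibitor genes, Nfkbia and Nfkbie gave different answers at different probesets, while both Nfkbib probesets gave like values. In the plot of levels by array, the 5 Nfkbia panels do not share a pattern, and neither do those of Nfkbie.

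Nfkbia encodes IkappaB-alpha, the inhibitor that NF-kappaB itself induces to close the loop, and lies at chr12:55489409-55492647. Its probeset with the highest mean level, 1420088_at, was at 12.68, 12.61 and 12.68 in control, 12.86, 12.67 and 12.81 in v-Src and 12.48, 12.67 and 12.40 in STAT3-C arrays. Neither line passed there, with log2 differences of 0.13 (95% interval -0.06 to 0.31) and -0.14 (95% interval -0.36 to 0.09). This probeset is near the top of the scale, where no array exceeded 14.44.

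At 1420089_at the Nfkbia level was 7.18, 7.11 and 7.11 in the control arrays. In the v-Src arrays it was 8.00, 7.82 and 7.63, and in the STAT3-C arrays 7.81, 7.83 and 7.63. All 6 transfected arrays lay above all control arrays. In v-Src cells the log2 difference was 0.68 (SE 0.10, limma adjusted p = 0.00289) and in STAT3-C cells 0.62 (SE 0.09, limma adjusted p = 0.00162). After median centring of the arrays the STAT3-C difference was 0.58, just under the 1.5-fold line.

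The Nfkbia probeset 1438157_s_at told the lines apart. Its log2 level was 11.62, 11.51 and 11.44 in control and 11.61, 11.27 and 11.39 with v-Src, against 12.10, 12.24 and 11.95 with STAT3-C. All STAT3-C arrays lay above the other 6. The direct difference, v-Src minus STAT3-C, was -0.67 (SE 0.12, limma adjusted p = 0.00751) and passed, and after quantile normalization it was -0.55 and did not. Against control the STAT3-C difference was 0.57 (SE 0.11, limma adjusted p = 0.00446), a 1.49-fold change under the threshold, and the v-Src difference was -0.10.

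Of the other Nfkbia probesets, 1448306_at was higher in all 6 transfected arrays than in control, with log2 differences of 0.36 with v-Src (adjusted p = 0.0689, limma) and 0.56 with STAT3-C (adjusted p = 0.00965, limma, fold under 1.5). The remaining one, 1449731_s_at, overlapped between all groups, with differences of -0.07 and -0.26. A probeset whose name ends in _s_at can also bind RNA of other genes. With all 5 probesets averaged, the log2 difference of Nfkbia was 0.20 with v-Src (adjusted p = 0.147, limma) and 0.27 with STAT3-C (adjusted p = 0.0796, limma). The rise thus rests on the choice of probeset.

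Nfkbib encodes IkappaB-beta, which lets dimers go more slowly, and lies at chr7:28758251-28766644. Its log2 level at 1421266_s_at was 7.95 to 8.22 in control, 7.96 to 8.08 in v-Src and 8.37 to 8.52 in STAT3-C arrays. At 1446718_at it was 5.35 to 5.52, 5.33 to 5.60 and 5.71 to 5.81 in the same order. At both probesets the STAT3-C arrays lay above the other 6 without overlap, by 0.36 and 0.32 against control (adjusted p = 0.0284 and 0.0298, limma), changes under 1.5-fold that did not pass. The v-Src differences from control were -0.07 and 0.01. The direct differences were -0.43 and -0.31, with adjusted p-values of 0.0092 and 0.0489 from limma and folds under 1.5.

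Nfkbie encodes IkappaB-epsilon, a further inducible inhibitor, and lies at chr17:45555700-45563169. At 1458299_s_at its log2 level was 7.75, 7.75 and 7.41 in control, 7.33, 7.83 and 7.38 in v-Src, and 8.21, 8.51 and 7.96 in STAT3-C arrays. The STAT3-C arrays lay above all others. With STAT3-C the level rose by 0.59 on the log2 scale (SE 0.16, limma adjusted p = 0.0254), and the direct difference was -0.71 (SE 0.18, limma adjusted p = 0.0297). Neither call is firm: against control it was lost after quantile normalization (0.56) and after median centring (0.54), and also without STAT3-C replicate 1 or 2 or control replicate 3, at log2 differences of 0.60, 0.45 and 0.47, and the direct call was lost on omission of v-Src replicate 1, v-Src replicate 6, STAT3-C replicate 1 or STAT3-C replicate 2, at differences of -0.72 to -0.57.

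At the other Nfkbie probeset, 1431843_a_at, all groups overlapped, and the log2 difference was 0.16 with v-Src and -0.01 with STAT3-C (95% interval -0.36 to 0.34). With both probesets averaged, Nfkbie did not pass, at 0.29 with STAT3-C against control (adjusted p = 0.161, limma) and -0.27 in the direct comparison (adjusted p = 0.243, limma).

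The nuclear members differed from each other: Bcl3 rose with v-Src, and Nfkbiz passed in no comparison. Bcl-3 binds p50 and p52 dimers and can turn them into activators, and its gene, first found at a translocation in leukaemia, lies at chr7:19808462-19822824. The log2 level of Bcl3 at 1418133_at was 7.32, 7.19 and 7.50 in control arrays 1, 2 and 3. In v-Src arrays 1, 5 and 6 it was 8.54, 8.26 and 8.62, and in STAT3-C arrays 1, 2 and 3 it was 7.82, 7.93 and 7.49. The v-Src arrays lay above the other 6, and the lowest STAT3-C array lay just under the highest control array.

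In v-Src cells Bcl3 rose by 1.14 log2 units (SE 0.12, limma adjusted p = 0.000605), a 2.21-fold rise. With STAT3-C the difference was 0.41 (SE 0.14, 95% interval 0.09 to 0.73, adjusted p = 0.056, limma) and did not pass. The direct difference was 0.73 (SE 0.14, limma adjusted p = 0.0121), 1.66-fold higher with v-Src. Without v-Src replicate 1 the direct difference was 0.69 with an adjusted p of 0.0505. The rise with v-Src passed under all 15 alternatives tried, at 1.07 to 1.25. Relb and Bcl3 lie 179 kb apart on chromosome 7 with 13 annotated genes between them, and with STAT3-C their log2 differences were -0.75 and 0.41.

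Nfkbiz encodes IkappaB-zeta, which acts with p50 on a part of the inflammatory genes, and lies at chr16:55811375-55838954. At 1417483_at its log2 level was 9.76 to 9.97 in control, 9.18 to 9.69 in v-Src and 9.22 to 10.13 in STAT3-C arrays. All v-Src arrays lay below control, by 0.40 on average (difference -0.40, standard error 0.14, adjusted p = 0.0711, limma), which did not pass. The STAT3-C arrays spread more widely than either other line, with an SD of 0.47 beside 0.12 in control. At 1448728_a_at the differences were 0.10 with v-Src and -0.11 with STAT3-C, and at 1457404_at they were 0.18 and -0.35. The 3 probesets thus gave no common direction with v-Src, and the averaged difference was -0.04.

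The other genes of the pathway were taken from lists, with the probeset of the highest mean standing for a gene. Of the 18193 genes so counted, 9.54% rose and 10.4% fell with v-Src and 11.9% rose and 10.3% fell with STAT3-C. In the direct comparison 4.84% were higher and 6.83% lower with v-Src. The median log2 difference of all genes was 0.02, 0.04 and -0.03 in that order. Of the other IkappaB-like genes, Nfkbid (IkappaB-NS) rose by 0.67 with v-Src (adjusted p = 0.00737, limma) and by 0.76 with STAT3-C (adjusted p = 0.00801, limma), from a control level of 5.01 under the array lower quartile. Nfkbil1 did not pass, at -0.51 and -0.53, with folds under 1.5.

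None of the 9 measured ligands of the pathway, such as Tnf, Il1a, Il1b and Ltb, passed in any comparison by limma or by SAM. At an unadjusted limma p under 0.05, 2 of the 9 were lower in each transfected line than in control, and 1 differed between the lines, lower with v-Src. Their median log2 difference from control was -0.06 in v-Src cells and 0.04 in STAT3-C cells. Of 13 receptors, 3 rose and 2 fell with v-Src, and 1 rose and 3 fell with STAT3-C. Tlr4, the receptor for lipopolysaccharide, rose by 1.99 with v-Src (SE 0.20) and by 1.17 with STAT3-C (SE 0.18), and Tlr3, the sensor of double-stranded RNA, fell by 1.16 and 1.21. All 4 Tlr4 probesets rose with v-Src and 2 of them with STAT3-C. Il1r1, the signalling receptor of interleukin-1, fell by 0.86 with STAT3-C at 1448950_at and did not move past the threshold at its other probeset, at 0.08. Tnfrsf1b and Tnfrsf12a, which encode TNFR2 and the TWEAK receptor, rose by 0.99 and 0.69 with v-Src. In STAT3-C cells these probesets were at 0.49 and -0.21 and did not pass. The second Tnfrsf1b probeset passed as higher in each line, at 1.04 for v-Src cells and 0.81 for STAT3-C cells. Omission of v-Src replicate 5 left the Tnfrsf12a difference with v-Src at 0.57, which did not pass. Tlr2, the receptor for bacterial lipoproteins, fell in both lines, with log2 differences of -0.68 and -0.63. Its v-Src call was lost without v-Src replicate 1 or 6 or any 1 control array, at -0.72 to -0.48, and its STAT3-C call without STAT3-C replicate 3 or control replicate 3, at -0.49 and -0.55.

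Of 26 kinases and adapters, 2 rose and 6 fell with v-Src and 5 fell with STAT3-C. The median log2 differences were -0.29 and -0.15. Ube2n, the E2 enzyme that builds lysine-linked ubiquitin chains with Traf6, fell by 1.29 and 0.94, and Btrc, the receptor subunit of the ligase that targets phosphorylated IkappaB, fell by 0.72 and 0.66 at 1 of its 5 probesets. Tradd, an adapter of the tumour necrosis factor receptor, fell by 0.85 with v-Src and was at -0.41 with STAT3-C, and Tab2, an adapter of the kinase TAK1, fell by 0.70 with v-Src and was at -0.50 with STAT3-C at 1423462_at. The other Tab2 probeset fell in both lines, with log2 differences of -0.66 and -0.95. Irak2, a kinase of interleukin-1 and Toll-like receptor signalling, fell by 0.99 with STAT3-C and was at -0.13 with v-Src. Of the IkappaB kinase genes and their relatives, Ikbke fell by 0.70 with STAT3-C (adjusted p = 0.00539, limma) and was at -0.51 with v-Src, a fold under 1.5; without control replicate 2 its STAT3-C difference was -0.55 and did not pass. Ikbkb and Ikbkg did not pass, with log2 differences of -0.34 and -0.51 for Ikbkb and of 0.49 and -0.01 for Ikbkg.

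**Figure D3:**
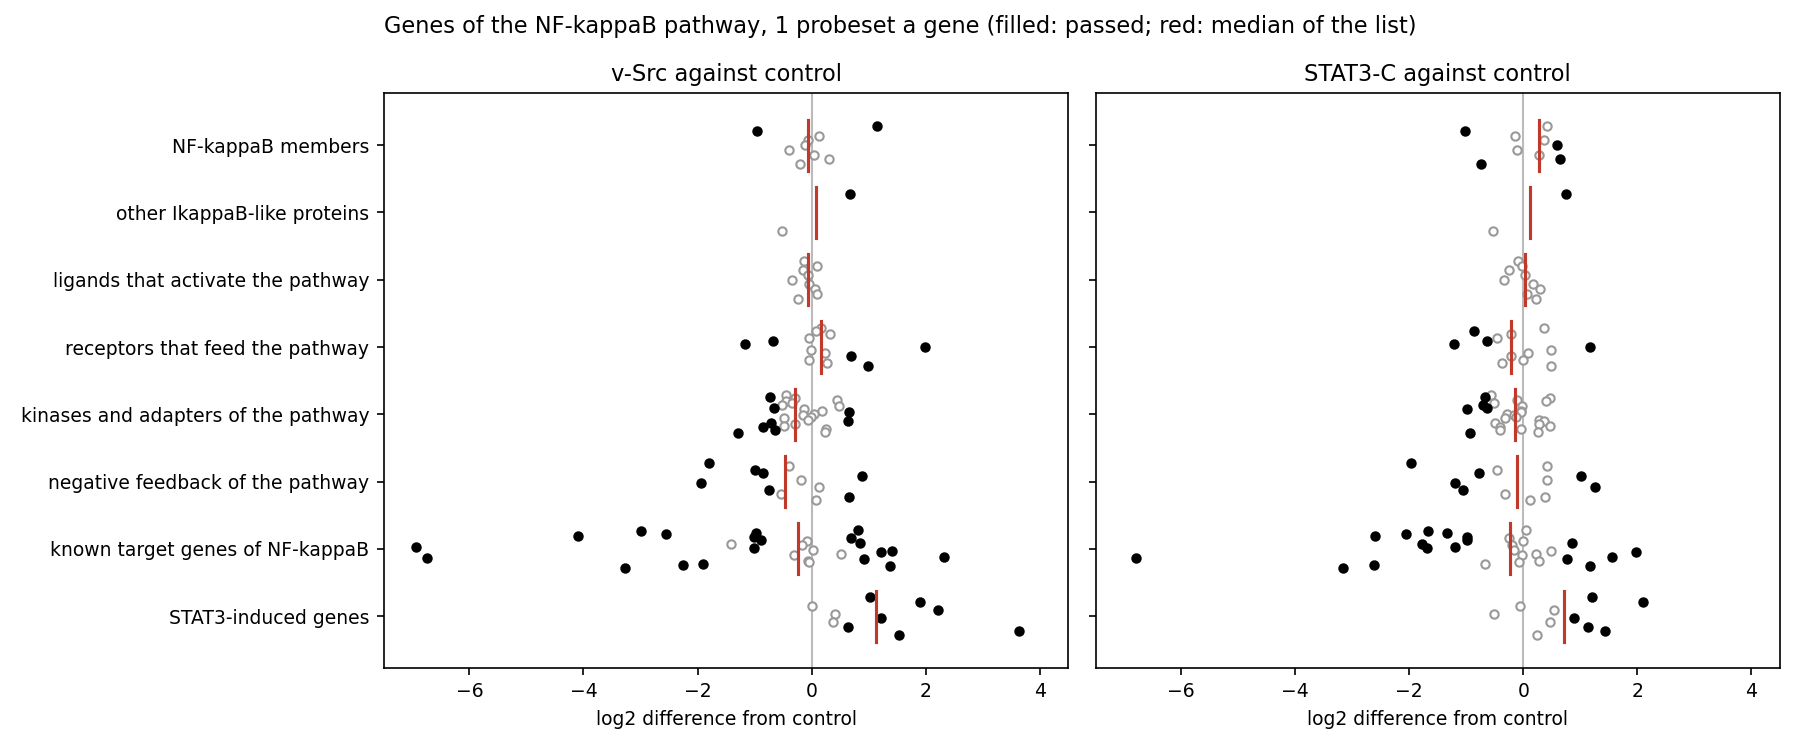
Log2 difference from control (x axis) of the genes in each pathway list, with v-Src on the left and STAT3-C on the right; each point is 1 gene at 1 probeset, filled points passed and red bars are list medians. No ligand passed, and the known target genes spread from -6.94 to 2.32 with v-Src.

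The plot of the pathway lists shows that the members moved over a narrower range, -1.02 to 1.14, than the known targets did. No test was made of that contrast. Among 12 negative feedback genes, 2 rose and 5 fell with v-Src, and 2 rose and 4 fell with STAT3-C, with medians of -0.47 and -0.11. Birc3, which encodes cellular IAP2, fell by 1.81 with v-Src (SE 0.08) and by 1.96 with STAT3-C (SE 0.09) at 1421392_a_at, and its other probeset was at -0.08 and 0.02. Tnfaip3, which encodes the ubiquitin-editing inhibitor A20, fell by 0.74 and 1.05 at 1433699_at, and its other probeset was at 0.08 and -0.11. Pdlim2, which encodes a ligase for nuclear p65, fell by 1.93 and 1.20. Cyld, a deubiquitinase, fell by 0.98 with v-Src and was at -0.45 with STAT3-C at 1429618_at. Of its 4 probesets 3 fell with v-Src, in a range of -1.13 to 0.39, and 2 fell with STAT3-C, in a range of -1.13 to 0.12. Otud7b, also a deubiquitinase, rose by 0.89 and 1.01 at 1435552_at, and of its 4 probesets 2 rose with v-Src and 1 with STAT3-C. Tank, which encodes a binding partner of TRAF proteins, rose by 1.27 with STAT3-C at 1 of its 2 probesets and was at 0.12 with v-Src there.

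**Figure D4:**
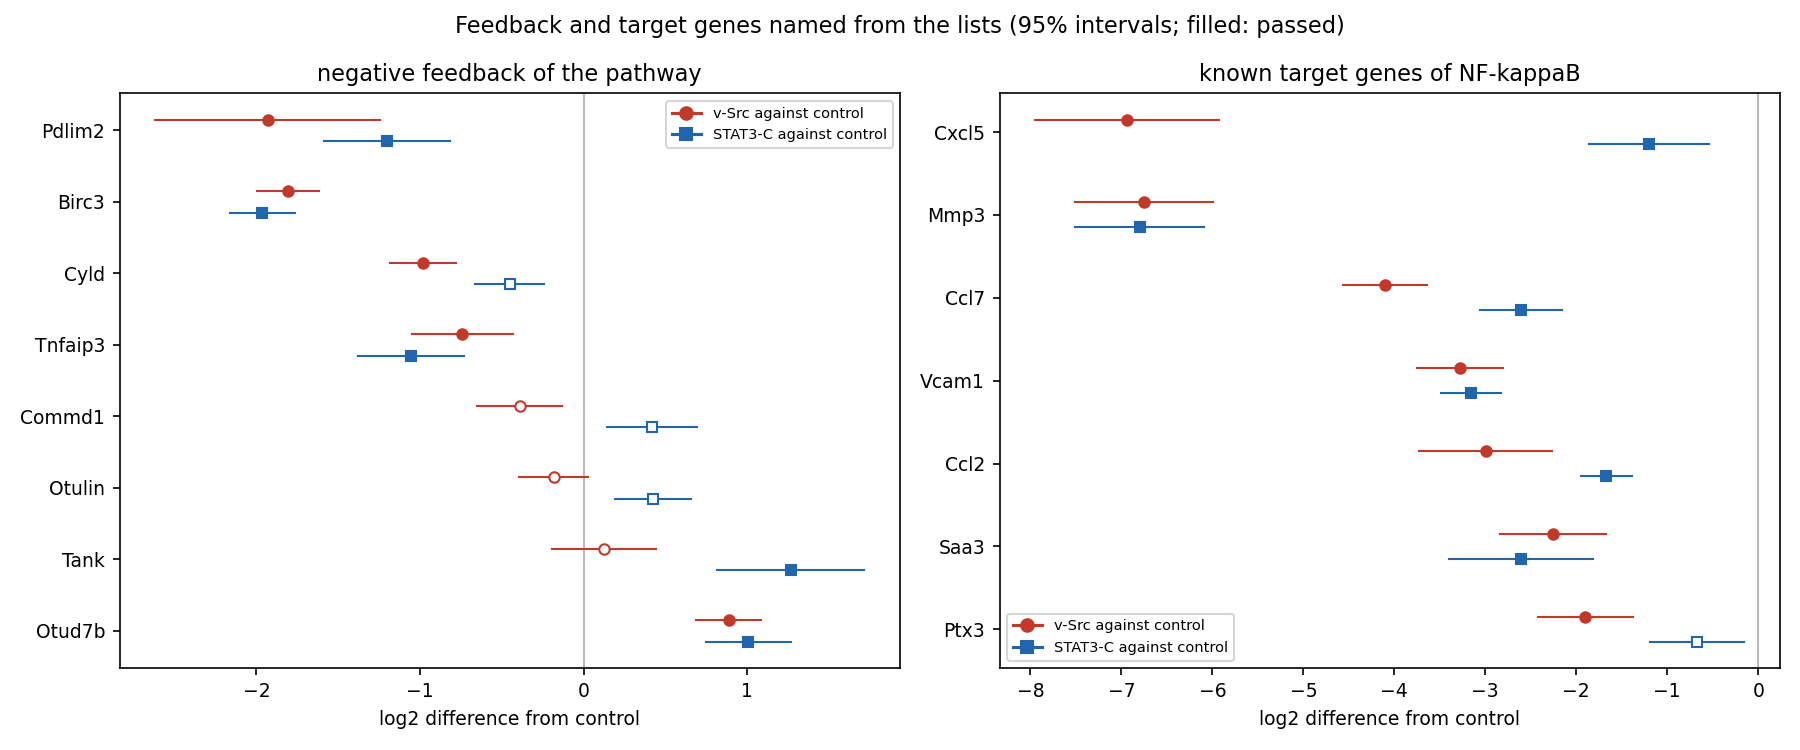
Log2 difference from control (x axis) of the feedback genes (left) and target genes (right) named from the lists, with 95% intervals from limma; circles are v-Src, squares STAT3-C, and filled symbols passed. Cxcl5 is the gene whose symbols lie furthest apart, at -6.94 and -1.20.

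Of 28 known NF-kappaB target genes, 8 rose and 12 fell with v-Src, and 5 rose and 12 fell with STAT3-C. Their median log2 differences were -0.24 and -0.23. The 4 lowest differences were those of Cxcl5, Mmp3, Ccl7 and Vcam1 with v-Src and those of Mmp3, Vcam1, Saa3 and Ccl7 with STAT3-C. Mmp3, which encodes stromelysin-1, a matrix protease, went from a mean log2 level of 11.79 in control to 5.03 with v-Src and 4.99 with STAT3-C, near the lower quartile of an array, and Saa3, an acute-phase protein, fell too, with log2 differences of -2.26 and -2.61. In the plot of feedback and target genes, Cxcl5, a neutrophil chemokine, went from a mean log2 level of 12.34 in control to 5.41 with v-Src and 11.14 with STAT3-C. Ccl7, a monocyte chemokine, fell in both lines, with log2 differences of -4.10 (SE 0.19) for v-Src and -2.61 (SE 0.20) for STAT3-C. Vcam1, which holds leukocytes to the endothelium, fell as well, with differences of -3.28 and -3.16. Ccl2 fell by 3.00 and 1.67. In the other direction, 5 target genes rose in both lines, beside 11 that fell in both. Sod2, mitochondrial superoxide dismutase, rose by 1.37 and 1.18, and Il1rn, the interleukin-1 receptor antagonist, by 1.22 and 1.97. The chemokine gene Cxcl1 rose by 0.85 in each line, and Mmp9, a matrix protease gene, by 0.93 and 0.76. Lcn2, an iron-binding defence protein, rose by 2.32 and 1.56, the latter with a standard error of 0.50 and a limma adjusted p of 0.0477. Ptx3, an innate defence protein, fell by 1.90 with v-Src at 1418666_at, while its other probeset was at 0.54 with v-Src and rose by 1.36 with STAT3-C. Of 10 genes known to be induced by STAT3, 7 rose and none fell with v-Src, and 5 rose and none fell with STAT3-C. Socs3, the feedback inhibitor of cytokine signalling, rose by 3.63 and 1.43, and Cebpd, a transcription factor, by 1.89 and 2.11. Il4ra, a cytokine receptor chain, rose by 2.22 with v-Src and was at 0.55 with STAT3-C, while Ccnd1, cyclin D1, rose by 1.03 and 1.20 and the kinase gene Pim1 by 0.64 and 1.14. After median centring or without v-Src replicate 1 the Pim1 difference with v-Src was 0.57 and did not pass. SAM called none of the 10 lower either, and 0 and 1 were lower at an unadjusted limma p under 0.05.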

How the data were processed

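RNA of 3 control, 3 v-Src and 3 STAT3-C arrays was analysed as deposited; groups and array numbers come from the sample titles. The authors made the log2 expression values by Robust Multichip Average (RMA). Their methods describe control arrays normalized with each transfected line in turn, and the table does not say which run its columns come from, so run and line cannot be told apart in the direct comparison. Each control array has a single column. If the lines come from separate runs, the comparison of either line with control may therefore cross runs as well. Some values are the same to the last digit in different lines. Rel 1420710_at is at 5.74439 in control array 1, v-Src array 5 and STAT3-C array 1. Whether all columns come from 1 run was not tested. Arrays carry no read depth, and their number limits the precision.

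Models were fitted with limma 3.58.1 (lmFit and eBayes) under R 4.3.3, each on the 6 arrays concerned, with Benjamini-Hochberg adjustment over the 45037 probesets left after 64 controls. Thresholds were 0.05 on the adjusted p and 1.5 on the fold. For a gene with several probesets the one of highest mean level was taken, which gave 18193 genes. Of the probesets, 34945 carry 1 gene symbol, 932 several and 9160 none. With 3 arrays on each side, the smallest two-sided p of an exact permutation test is 0.1. Fits were tested on simulated data. Figures used python 3.11.15 and matplotlib 3.10.9. Alternatives were all 9 arrays in 1 fit, quantile normalization, median centring, dropping probesets of low level, a fold threshold of 2 or none, an adjusted p threshold of 0.01, SAM (the study's test) at a q under 5%, robust eBayes with a variance trend, omission of single arrays, the array number as a block and the mean of a gene's probesets.

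Named are every member at every probeset; from each pathway list, in each comparison, up to 4 genes with the largest change among those that passed; the 3 genes nearest in pattern to Bcl3 and to Nfkbiz; Stat3 and Src; and up to 4 markers a list. Sod2, Lcn2, Il1rn, Cxcl1, Mmp9, the other list genes that passed directly (Map3k7, Cflar, Ier3, Bcl2l1 and Gadd45b) and the genes named without having passed (Tnf, Il1a, Il1b, Ltb, Nfkbil1, Ikbkb and Ikbkg) were added after their values were seen. The members and lists were chosen with earlier results of these data known, so no list is independent evidence. Listed genes without a single-symbol probeset (among them Bcl2a1, C3, Chuk, Irak4, Nfkb1, Ripk1, Tnfsf12 and Traf3) were not analysed.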

Additional observations from a re-analysis of the deposited data

Results flagged for a closer look

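The items below are the members, at any probeset, and the genes of the pathway lists, at the probeset that stands for each, whose effect differed between the lines, that is, those that passed in the direct test of v-Src against STAT3-C (limma, values as log2 v-Src minus STAT3-C). Among the members they were Bcl3 at 0.73, the Nfkbia probeset 1438157_s_at at -0.67 and the Nfkbie probeset 1458299_s_at at -0.71. For each of these, the other probesets of Nfkbia and Nfkbie did not pass directly, and Bcl3 has only 1 probeset.

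Of all genes, 4.84% were higher and 6.83% lower with v-Src in the direct test, shares that stand beside each list count below. Of the 13 receptors 4 passed, all higher with v-Src. Tlr4 was higher with v-Src by 0.81, Tnfrsf12a by 0.91, Il1r1 by 0.94 and Tnfrsf1a by 0.65. The direct difference passed at 2 of the 4 Tlr4 probesets, and the other Il1r1 probeset was at -0.09. The Tlr4 call was lost without any 1 of v-Src replicates 1, 5 and 6 or STAT3-C replicates 1 and 3, at differences of 0.61 to 0.93, and the Tnfrsf12a call without any v-Src array or STAT3-C replicate 1 or 2, at 0.68 to 0.97. The Tnfrsf1a call was lost without v-Src replicate 1, at 0.58. Of the 26 kinases and adapters, Irak2 (0.86) and Map3k7 (0.70) were higher with v-Src, the latter at 1 of its 6 probesets, and Tbk1 (-0.97), Fbxw11 (-0.83) and Cops5 (-0.75) were lower. Of 5 Fbxw11 probesets, 1 was lower and 1 was higher with v-Src.

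Of the 12 feedback genes, Tank (-1.14), Commd1 (-0.81) and Otulin (-0.61) were lower with v-Src than with STAT3-C; the second Tank probeset was at -0.09, and the Otulin call was lost without v-Src replicate 6 or STAT3-C replicate 1. Of the 28 target genes, 4 were higher and 5 lower with v-Src. Cflar (0.95), Ier3 (0.92), Bcl2l1 (0.77) and Gadd45b (0.67) were higher, and Cxcl5 (-5.73), Ccl7 (-1.49), Ccl2 (-1.33), Ptx3 (-1.23) and Il1rn (-0.76) were lower. The Bcl2l1 call was lost on omission of v-Src replicate 1, v-Src replicate 6, STAT3-C replicate 1 or STAT3-C replicate 3, at 0.62 to 0.82, the Gadd45b call on omission of v-Src replicate 1, v-Src replicate 5, STAT3-C replicate 1 or STAT3-C replicate 2, at 0.51 to 0.73, and the Cflar call without STAT3-C replicate 1, at 0.94. Of 3 Gadd45b probesets 1 passed directly. The mean Cxcl5 level with v-Src, 5.41, is near the lower quartile of an array, so its difference may be a lower bound. No floor was measured for this probeset. The Ccl2 call was lost without v-Src replicate 6 or any 1 of STAT3-C replicates 1, 2 and 3. Of the 10 genes induced by STAT3, Socs3 (2.21), Il4ra (1.68), Stat3 (1.29) and Junb (0.93) were higher with v-Src. Of 4 Stat3 probesets 1 passed directly.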

How the results depend on the processing

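Over 819 member values recomputed under the alternatives, 768 kept their side of the threshold, 37 lost a call and 14 gained one, and no call changed sign. Scaling moved the median of all probesets by less than 0.1. All 9 arrays in 1 fit, the filter on level, SAM and eBayes with trend and robust left each count of member calls as it was. The causes of the changes below were not tested.

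Shares over all probesets and all genes were computed at the main thresholds only, so the counts at other settings are not set against a background. Counts of member probesets that passed changed as follows. At a fold of at least 2, v-Src against control gave 1 higher and 0 lower, STAT3-C against control 0 higher and 1 lower, and the direct comparison 0 in each direction. With no fold threshold, 7 were higher with STAT3-C against control and 5 were lower in the direct comparison. At an adjusted p under 0.01, 2 were higher and 1 was lower with STAT3-C, and directly 0 were higher and 1 was lower. Quantile normalization gave 1 higher and 2 lower with STAT3-C and 1 lower directly. Median centring gave 2 lower for v-Src and, for STAT3-C, 1 higher.

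Counted as genes, a fold of at least 2 left 0 lower with v-Src, 0 higher and 1 lower with STAT3-C, and 0 in each direction directly. With no fold threshold 3 genes were lower directly. At an adjusted p under 0.01, 1 was higher and 1 lower with STAT3-C, and 0 in each direction directly. Quantile normalization left 0 genes higher with STAT3-C, and median centring and the mean of a gene's probesets each left 1. That mean left 0 lower directly.

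Leaving out each array in turn, v-Src against control gave 2 probesets higher throughout and 1 to 2 lower. STAT3-C against control gave 1 to 5 higher and 1 to 3 lower (genes 0 to 2 and 1 to 2), with the lowest counts without control replicate 3 for the rises and without control replicate 1 for the falls, and the direct comparison 0 to 2 higher and 1 to 2 lower (genes 0 to 1 each way), with the lowest without v-Src replicate 1.

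The labels do not say whether an array number marks a shared passage or day. The deviations of STAT3-C and control arrays of the same number correlated at -0.09, 0.06 and 0.04, and those of different numbers at -0.11 to 0.07. As deviations from means of only 3 arrays, these values cannot settle whether the numbers pair the samples. With the replicate block, STAT3-C against control gave 3 member probesets higher and 2 lower, the Nfkb2 probeset 1429128_x_at losing its call (-0.59, adjusted p = 0.0556). The v-Src arrays share only number 1 with the others, so no block was fitted for them.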

Other observations

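Among 18192 other genes at 1 probeset each, the pattern over the 9 arrays nearest to that of Bcl3, by the root mean square of log2 differences after centring on the control mean, was that of Ppfia1 (0.0986), followed by Atp6v1a (0.115) and C77080 (0.124). Ppfia1, which encodes liprin-alpha-1, an adaptor of focal adhesions, had a log2 difference from control of 1.07 with v-Src and 0.34 with STAT3-C, and Atp6v1a, the catalytic subunit of the proton pump of lysosomes, 1.09 and 0.41. Nearest to Nfkbiz at 1417483_at were Col4a5 (0.102), Cdc42ep1 (0.126) and Spg20 (0.145). Col4a5, a basement membrane collagen chain, had differences of -0.32 and -0.07. These are descriptions of likeness over the arrays and carry no test.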
